A study of Mus musculus with 20 samples.

Results

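The transcripts of 10 genes of prostaglandin and lipoxygenase metabolism were followed across mouse ear tissue: Ptgs1, Ptgs2, Ptges, Ptgds, Hpgd, Ptger2, Ptger4, Alox5, Alox5ap and Alox15. Rows were taken by gene symbol, from a list drawn up with earlier results of these data known. All 10 were found in both deposited tables, which hold 19234 genes for the model labelled AD and 19501 genes for the model labelled ACD. RNA sequencing had been done on 20 libraries from ears of C57BL/6 mice aged 6 to 7 weeks, 5 libraries in each of 4 groups. The AD mice were either given SB415286, an inhibitor of the kinase GSK3, at 0.7 mg/kg into the abdomen, or served as AD controls. The ACD mice were given SB415286 at 2 mg/kg or served as ACD controls. Ears were taken 4 h after injection. The labels do not spell out AD and ACD or say how either model was made. One label field calls the controls untreated and the study's design text calls them vehicle controls, and a protocol field names the AD model for both doses. Dose and model therefore changed together, and no group of healthy ears was analysed here. Libraries are called here by the number in their titles. The labels do not say that each library is a separate mouse, so p-values measure the spread between libraries.

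Prostaglandins and leukotrienes are lipid mediators made from arachidonic acid, a fatty acid released from membranes by phospholipases. Cyclooxygenases turn it into prostaglandin H2, from which separate synthases make prostaglandin E2, prostaglandin D2 and other prostanoids. 5-lipoxygenase, helped by its activating protein, starts the synthesis of leukotrienes, and 12/15-lipoxygenase makes hydroxylated fatty acids and precursors of lipoxins. In skin, keratinocytes, mast cells, macrophages and granulocytes all make such mediators, which act in vessel dilatation, oedema, itch and the recruitment of leukocytes.

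No member passed the threshold for SB415286 in either model, an adjusted p under 0.05 in edgeR's quasi-likelihood test, with p-values adjusted over all genes by Benjamini and Hochberg. In the AD model 0 of 10 members passed, where 1.23% of all 15149 genes tested did. With SB415286 in ACD mice 0 of 10 passed, where 0.0264% of 15150 genes did. At an unadjusted p under 0.05, 4 members were reached in the AD model (Ptges and Ptgds with higher and Ptger4 and Alox15 with lower estimates), against 20.1% of all genes, and 1 in the ACD model (Ptgs2, higher), against 13.8%. The clear differences were between the controls of both models. Of the 10 members, 4 were higher in ACD controls than in AD controls (Ptgs2, Ptger2, Ptger4 and Alox5ap) and 2 were lower (Ptgs1 and Ptgds). This is no larger a share than over all 15700 genes of that test, of which 61.6% passed (29.5% higher and 32% lower). The median log2 difference was 0.13 over the members and -0.04 over all genes. Model, deposited table and any batch cannot be told apart in this comparison. The tables also differed in form: 33.1 to 35.2% of all counts in AD libraries, and 56.5 to 63.4% in ACD libraries, were not whole numbers. Counts of 0 are included in these shares as whole. The reason was not tested.

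**Figure D1:**
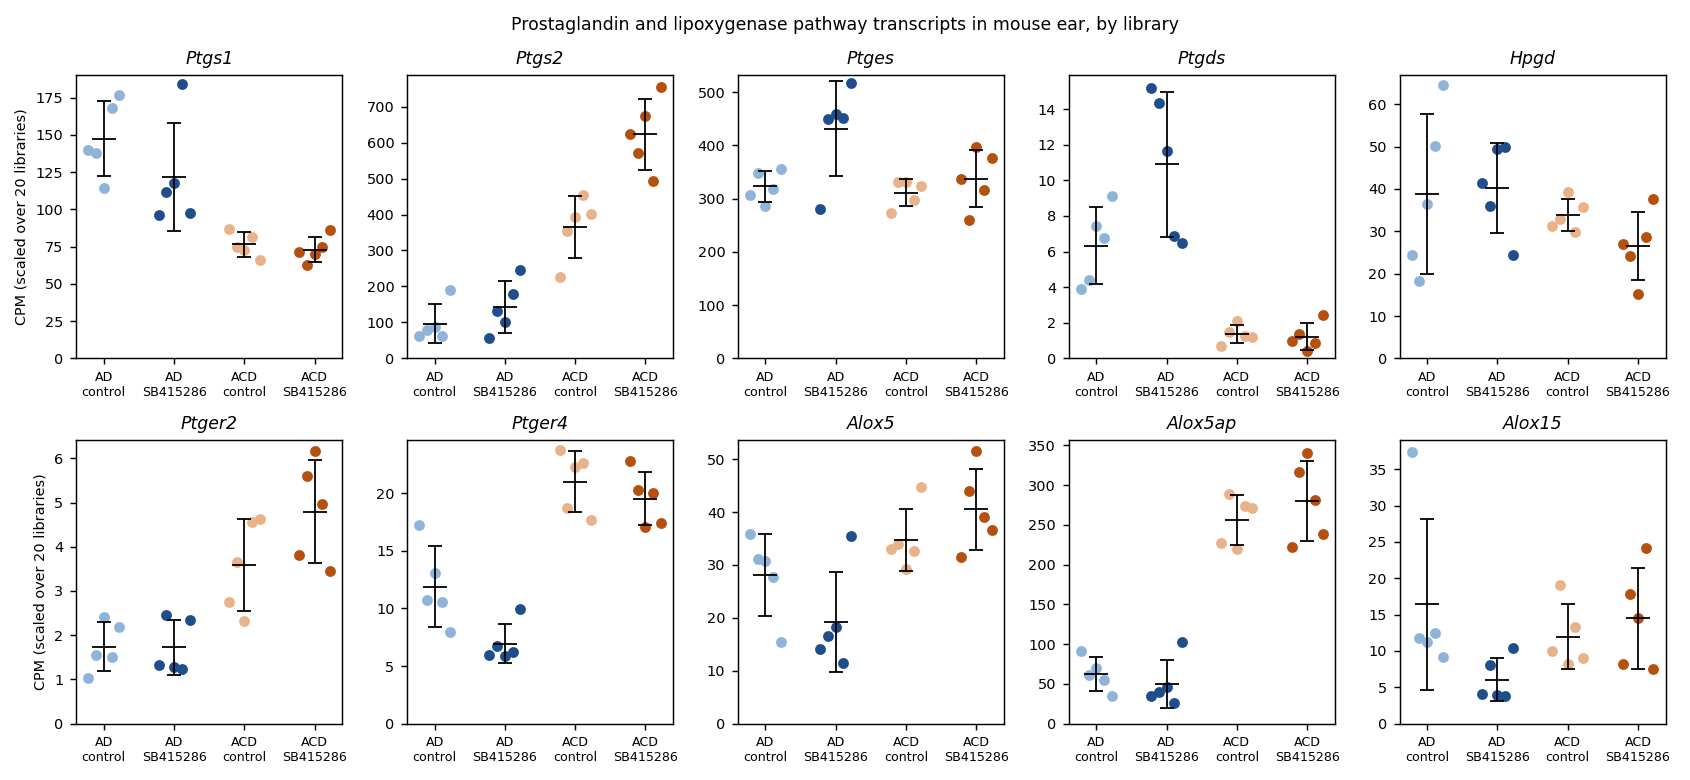
Counts per M counts (CPM, vertical axis, scaled over all 20 libraries) of each member in each library, by group. Each point is 1 library, long bars are means and error bars are SD (n = 5). Ptgs2 and Alox5ap are highest in the ACD groups, Ptgs1 and Ptgds are highest in the AD groups, and only Ptgs2 in the ACD model shows injected and control libraries of 1 model that do not overlap.

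AD libraries held 18.2 to 20.9 M counts each (M, mega), and ACD libraries 18.8 to 20.2 M. AD control library 6 had a median correlation of 0.960 with the other AD controls and 0.975 with the injected AD libraries. Injected AD library 7 had medians of 0.948 with its own group and 0.947 with the controls. Summed over 11 neutrophil markers, injected library 7 held 908 CPM where the other injected AD libraries held 182 to 278 CPM, and control 6 held 159 CPM where the other AD controls held 374 to 538 CPM. Each AD result of a member is given with all 10 libraries and also without these 2. Both were singled out from these same data, in part by their marker sums. Control 6 was also picked for its likeness to the injected libraries, and library 7 for its low correlation with its own group. Leaving both libraries out can therefore widen the separation of the groups by construction, though it did not for every member. Adjusted p-values without them are given as a description and support no call. Markers of keratinocytes, fibroblasts and endothelium, which mark skin, were detected in every group (8 of 8, 7 of 7 and 6 of 6 markers tested). In such bulk tissue, fewer cells of a type and less RNA per cell cannot be told apart.

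Promoter sequences were taken for the 3 members of prostanoid synthesis whose transcripts differed between both control groups. Each runs from 250 bases before to 50 bases after the start of the gene in the RefSeq table of GRCm38.p6 and is written 5′ to 3′ on the strand of the gene. The starts of Ptgs1 and Ptgds in that table lie inside the annotated span of the gene. Capitals mark matches to 5 motifs searched on both strands: TATAAA, TGACGTCA (a cyclic AMP response element), a broad NF-κB form (GGG and CC with 5 bases of any kind between them), CACGTG (an E-box) and TGANTCA (an AP-1 form).
Ptgs1, chr2:36230176-36230475, plus strand: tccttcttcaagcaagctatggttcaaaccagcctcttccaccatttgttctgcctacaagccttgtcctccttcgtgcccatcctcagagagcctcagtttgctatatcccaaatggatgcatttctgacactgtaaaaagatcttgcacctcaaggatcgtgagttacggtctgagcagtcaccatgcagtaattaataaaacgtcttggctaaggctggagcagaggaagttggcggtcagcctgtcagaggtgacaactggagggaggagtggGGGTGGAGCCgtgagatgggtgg
Ptgs2, chr1:150099781-150100080, plus strand: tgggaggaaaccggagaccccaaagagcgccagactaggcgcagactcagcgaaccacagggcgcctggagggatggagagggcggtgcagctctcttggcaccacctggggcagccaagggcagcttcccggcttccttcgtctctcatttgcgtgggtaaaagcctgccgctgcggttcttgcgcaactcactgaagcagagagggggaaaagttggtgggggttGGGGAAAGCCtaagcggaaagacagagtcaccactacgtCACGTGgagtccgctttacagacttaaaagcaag
Ptgds, chr2:25469700-25469999, minus strand: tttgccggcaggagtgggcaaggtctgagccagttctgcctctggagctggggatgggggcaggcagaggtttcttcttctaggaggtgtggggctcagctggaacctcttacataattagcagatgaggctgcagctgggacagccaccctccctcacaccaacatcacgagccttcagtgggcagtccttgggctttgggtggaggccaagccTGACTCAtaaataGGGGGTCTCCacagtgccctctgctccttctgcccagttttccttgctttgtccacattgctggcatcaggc
All 3 windows held the NF-κB form, which 51% of the 32544 promoters in the table hold. The match in Ptgs1 was GGGTGGAGCC, in Ptgs2 it was GGGGAAAGCC and in Ptgds it was GGGGGTCTCC. The E-box CACGTG was found in the window of Ptgs2 and in 7.17% of all promoters. The AP-1 form was found as TGACTCA in the window of Ptgds and in 7.79% of all promoters. TGACGTCA (1.8% of promoters) and TATAAA (13.6%) were found in none of these 3 windows. A match describes the letters of a window and does not show that a factor binds there. Of the 10 members, 8 had an entry in the table, all but Alox5ap and Alox15.

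Levels of different genes were compared per length, as fragments per kilobase and M mapped fragments (FPKM). In AD controls Ptges was the most abundant member at 94.0 ± 9.65 FPKM (mean ± SD, n = 5, here and below), before Alox5ap at 67.7 ± 23.4 and Ptgs1 at 48.3 ± 7.46 FPKM. Ptger2 was the least abundant at 0.666 ± 0.258 FPKM. In ACD controls Alox5ap led at 265 ± 32.8 FPKM, before Ptges at 86.8 ± 6.53 and Ptgs2 at 82.6 ± 19.5 FPKM, whose ranges overlap. Ptgds at 1.72 ± 0.627 and Ptger2 at 1.24 ± 0.294 FPKM were the least abundant there.

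Ptgs1 (gene ID 19224, chr2:36216742-36258593 in GRCm38.p6) encodes cyclooxygenase 1, the enzyme present in many resting tissues. In AD controls 1, 2, 4, 5 and 6 it stood at 143, 140.4, 117, 170.0 and 181 CPM. In injected AD libraries 2, 3, 4, 6 and 7 it stood at 96.2, 113, 119, 188 and 101 CPM. Library 6 was the highest of all 10 and the other injected libraries lay at or below 119 CPM, near or below the lowest control. This gave a log2 fold change of -0.28 ± 0.19 (SE, here and below; adjusted p = 0.429), and of -0.15 without both libraries named above. ACD controls 1, 3, 4, 5 and 6 held 85.3, 73.8, 71.8, 80.8 and 65.8 CPM and injected ACD libraries 3, 4, 5, 7 and 8 held 70.8, 61.0, 68.5, 73.6 and 83.7 CPM. These ranges nearly coincided, with a log2 fold change of -0.08 ± 0.09 (adjusted p = 0.742).

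Between both control groups Ptgs1 was lower in the ACD model, at 76.4 ± 8.19 against 147 ± 25.2 CPM scaled over all 20 libraries. The log2 difference was -0.95 ± 0.16 (adjusted p = 5.45e-05), and no ACD control reached the lowest AD control. Such separation was found for 5 members (also for Ptgs2, Ptgds, Ptger4 and Alox5ap) and for 47.3% of all genes. Beside it, keratinocyte markers were lower for 5 of 8 and mast cell markers for 7 of 8, whose part in the Ptgs1 difference was not tested. Counts of Ptgs1 were not whole in any of the 20 libraries. The effective length that the deposited counts and FPKM imply for it had a median of 3165 bases in AD controls (3135 to 3238) and 3753 in ACD controls (3398 to 4322), so a step in its FPKM need not equal that in its counts.

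Ptgs2 (gene ID 19225, chr1:150100031-150108234) encodes cyclooxygenase 2, the form induced in inflammation. Its ACD values were the only ones among the members in which injected and control libraries of 1 model did not overlap, which 3.31% of all genes did in that comparison (1.72% with injected libraries higher). In the AD model no member had groups that did not overlap, where 4.65% of genes did. ACD controls 1, 3, 4, 5 and 6 held 221, 349, 388, 449 and 400.0 CPM. Injected ACD libraries 3, 4, 5, 7 and 8 held 619, 554, 662, 486 and 733 CPM. All 5 injected libraries thus lay above the highest control. The means were 361 ± 86.1 and 611 ± 95.5 CPM, and the log2 fold change was 0.76 ± 0.17 (1.69-fold higher, unadjusted p = 0.0011). With adjustment over 15150 genes the p was 0.154 by edgeR's quasi-likelihood test and did not pass. By DESeq2 it was 0.00251 with a log2 fold change of 0.76. Leaving out any 1 of the 10 ACD libraries left the log2 fold change between 0.62 and 0.85 and the adjusted p between 0.153 and 0.369.

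Markers of neutrophils, cells that also make prostaglandins, differed between both ACD groups in the same direction as Ptgs2. Their 11 markers summed to 2862 to 5227 CPM in controls and 5633 to 8743 CPM in injected libraries, with higher estimates for 11 of 11 markers (median log2 fold change 0.73), none past the threshold. In injected libraries 3, 4, 5, 7 and 8 the neutrophil marker sums were 6533, 5633, 8743, 8076 and 6273 CPM. Ptgs2 stood there at 619, 554, 662, 486 and 733 CPM, so the orders matched only in part. Control 1 was the lowest control in both, at 2862 CPM of markers and 221 CPM of Ptgs2. Estimates were lower for 10 of 10 macrophage and monocyte, 8 of 8 keratinocyte and 8 of 8 skeletal muscle markers, none past the threshold. So they were for 7 of 7 T cell and 6 of 6 sebaceous gland markers. Of 5 lung markers, 3 were tested and all 3 passed the threshold as higher in injected ACD libraries (median log2 fold change 5.62). The 5 markers summed to 10.7 to 44.0 CPM against 0.695 to 1.15 CPM in controls. These 3 were the only genes that passed as higher in the ACD model. The part of any of these markers in the Ptgs2 values was not tested. None of the 11 neutrophil markers was missing from the tables.

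In the AD model Ptgs2 was spread widely. AD controls 1, 2, 4, 5 and 6 held 64.2, 80.5, 89.6, 61.8 and 194 CPM, so control 6 held more than double the next control. Control 6 had the lowest sum of neutrophil markers of the AD libraries (159 CPM). Injected AD libraries 2, 3, 4, 6 and 7 held 58.1, 133, 102, 182 and 253 CPM, from below all controls to above all of them. Its log2 fold change was 0.57 ± 0.42 (adjusted p = 0.467). It was 0.98 without control 6, 0.28 without injected library 7 and 0.67 ± 0.30 without both (adjusted p = 0.121).

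Ptgs2 was higher in ACD controls than in AD controls, at 365 ± 85.8 against 96.2 ± 53.7 CPM (log2 difference 1.93 ± 0.35, 3.80-fold, adjusted p = 0.000116). The median balance of both cyclooxygenases lay on opposite sides of 1 in the 2 models. The FPKM ratio of Ptgs2 to Ptgs1 was 0.258 to 0.769 in AD controls and 0.434 to 1.85 in injected AD libraries, but 2.05 to 5.56 in ACD controls and 5.05 to 9.30 in injected ACD libraries. Median ratios were 0.421, 0.669, 4.16 and 6.82. Of the neutrophil markers 11 of 11 were higher in ACD controls too, with sums of 2924 to 5287 CPM against 156 to 527 CPM. Counts of Ptgs2 were not whole in 10 of 10 ACD libraries and in 3 of 10 AD libraries. The part of this, or of the neutrophil markers, in the difference was not tested.

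Ptges (gene ID 64292, chr2:30889471-30931020) encodes microsomal prostaglandin E synthase, which acts downstream of cyclooxygenase 2. AD controls 1, 2, 4, 5 and 6 held 312, 355, 293, 322 and 363 CPM and injected AD libraries 2, 3, 4, 6 and 7 held 281, 454, 464, 460.1 and 532 CPM. Libraries 3, 4, 6 and 7 lay above every control and library 2 lay below every control. The log2 fold change of 0.41 ± 0.15 had an unadjusted p of 0.022 and an adjusted p of 0.175, and it was 0.36 ± 0.16 without both libraries named above (adjusted p = 0.117). In the ACD model controls spanned 268 to 328 CPM and injected libraries 252 to 390.1 CPM, with a log2 fold change of 0.10 ± 0.11 (adjusted p = 0.713). Control groups stood at 323 ± 28.9 CPM in the AD model and 312 ± 25.2 CPM in the ACD model, a log2 difference of -0.05 ± 0.13 (adjusted p = 0.749). Ptges overlaps Gm52550 and Gm13400 in the annotation, and whether counting used the strand is not given in the sources used here.

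Ptgds (gene ID 19215, chr2:25466709-25470110) encodes the lipocalin-type prostaglandin D synthase. AD controls 1, 2, 4, 5 and 6 held 3.97, 4.49, 7.60, 6.87 and 9.32 CPM. Injected AD libraries 2, 3, 4, 6 and 7 held 15.3, 14.5, 11.8, 7.02 and 6.67 CPM, so 3 of 5 lay above every control and libraries 6 and 7 lay within the control range. The log2 fold change was 0.77 ± 0.31 (unadjusted p = 0.0285, adjusted p = 0.195) with all libraries. Without both libraries named above it was 1.08 ± 0.29 (adjusted p = 0.025).

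Markers of melanocytes had the same order in the injected AD libraries. All 5 had higher estimates, none past the threshold, and their sum was 228, 174, 116, 97.6 and 66.7 CPM in libraries 2, 3, 4, 6 and 7, against 66.7 to 82.5 CPM in the controls. Their part in the Ptgds values was not tested. In the ACD model Ptgds was near the lower end of detection, at 0.684 to 2.08 CPM in controls and 0.432 to 2.37 CPM in injected libraries (8 to 46 counts a library over both groups). Its log2 fold change there was -0.16 ± 0.41 (adjusted p = 0.898). Ptgds was lower in ACD controls than in AD controls, at 1.36 ± 0.511 against 6.33 ± 2.17 CPM (log2 difference -2.22 ± 0.38, 4.66-fold lower, adjusted p = 7.70e-05), beside 4 of 5 melanocyte markers that were lower as well, with sums of 18.6 to 32.3 against 65.5 to 81.5 CPM.

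Hpgd (gene ID 15446, chr8:56294552-56321046) encodes 15-hydroxyprostaglandin dehydrogenase, which inactivates prostaglandin E2. Its AD controls spread from 18.6 to 65.9 CPM with a median of 37.1, and the injected AD libraries from 25.2 to 51.0 CPM with a median of 41.4. The injected range lay inside the control range, with a log2 fold change of 0.05 ± 0.33 (adjusted p = 0.947). Without both libraries named above it was 0.44 ± 0.28 (adjusted p = 0.263). ACD controls 1, 3, 4, 5 and 6 held 30.6, 32.5, 38.9, 29.5 and 35.6 CPM, and injected ACD libraries 3, 4, 5, 7 and 8 held 26.8, 23.5, 15.0, 28.3 and 36.6 CPM. Of the injected libraries, 4 of 5 lay below every control, and the log2 fold change of -0.36 ± 0.19 had an adjusted p of 0.423. Between both control groups the log2 difference was -0.20 ± 0.28 (adjusted p = 0.562).

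Ptger2 and Ptger4 encode the prostaglandin E2 receptors EP2 and EP4, both of which raise cyclic AMP. Ptger2 (gene ID 19217, chr14:44988111-45003820) was the rarest member in the AD model, at 22 to 51 counts a library. AD controls held 1.07 to 2.45 CPM (median 1.59) and injected AD libraries 1.27 to 2.48 CPM (median 1.33), with a log2 fold change of -0.01 ± 0.30 (adjusted p = 0.988) and of -0.06 ± 0.32 without both libraries (adjusted p = 0.904). ACD controls 1, 3, 4, 5 and 6 held 2.69, 3.62, 2.29, 4.51 and 4.61 CPM and injected ACD libraries 3, 4, 5, 7 and 8 held 3.77, 5.44, 6.05, 4.88 and 3.35 CPM. The ranges overlapped and the log2 fold change was 0.40 ± 0.23 (adjusted p = 0.463). Ptger2 was higher in ACD controls than in AD controls, at 3.58 ± 1.04 against 1.74 ± 0.549 CPM (log2 difference 1.04 ± 0.27, adjusted p = 0.00291), with 1 AD control above the lowest ACD control.

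Ptger4 (gene ID 19219, chr15:5233399-5244187) had the smallest p of all members in the AD model. AD controls 1, 2, 4, 5 and 6 held 17.6, 10.9, 13.3, 10.7 and 8.11 CPM. Injected AD libraries 2, 3, 4, 6 and 7 held 6.02, 6.81, 5.93, 6.38 and 10.2 CPM. Injected library 7 lay above control 6 alone, and the other 4 injected libraries lay below every control. The means were 12.1 ± 3.59 and 7.07 ± 1.79 CPM. The log2 fold change was -0.78 ± 0.22 (unadjusted p = 0.0054), and the adjusted p of 0.0998 by edgeR's quasi-likelihood test did not pass. Its adjusted p was under 0.05 without control 6 (log2 fold change -0.89, adjusted p = 0.0323), without injected library 7 (-0.95, adjusted p = 0.0323) and without both (-1.07 ± 0.17, adjusted p = 0.00453). With all libraries it also passed by DESeq2 (adjusted p = 0.0209).

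Ptger4 in the ACD model spanned 17.6 to 23.2 CPM in controls and 16.8 to 22.6 CPM in injected libraries. These ranges nearly coincided, with a log2 fold change of -0.12 ± 0.11 (adjusted p = 0.667). The change in the ACD model minus the change in the AD model was 0.67 ± 0.25 on the log2 scale (unadjusted p = 0.0145, adjusted p = 0.279 over 15700 genes). Both control groups of Ptger4 were apart, at 21.0 ± 2.63 CPM in the ACD model and 11.9 ± 3.50 CPM in the AD model (log2 difference 0.82 ± 0.17, adjusted p = 0.000553).

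Alox5 and Alox5ap encode 5-lipoxygenase and its activating protein, which are needed for leukotriene synthesis and are found mainly in myeloid cells. Alox5 (gene ID 11689, chr6:116410071-116461178) stood at 36.6, 31.7, 31.4, 28.1 and 15.7 CPM in AD controls 1, 2, 4, 5 and 6. In injected AD libraries 2, 3, 4, 6 and 7 it stood at 14.2, 16.7, 18.5, 11.7 and 36.5 CPM. Control 6 lay within the range of the 4 low injected libraries, and injected library 7 lay near the highest control. The log2 fold change was -0.55 ± 0.31 (adjusted p = 0.344). It was -0.91 ± 0.23 without injected library 7 (adjusted p = 0.0433) and -1.07 ± 0.14 without both libraries (adjusted p = 0.00279).

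For Alox5ap (gene ID 11690, chr5:149265004-149288153), control 6 likewise lay within the range of the other injected libraries, and injected library 7 lay above every control. AD controls 1, 2, 4, 5 and 6 held 93.9, 61.8, 71.7, 55.2 and 35.3 CPM, and injected AD libraries 2, 3, 4, 6 and 7 held 34.7, 40.7, 46.1, 26.7 and 106 CPM. Its log2 fold change was -0.32 ± 0.37 (adjusted p = 0.649) and -0.94 ± 0.20 without both libraries (adjusted p = 0.0119). Over the AD libraries, summed neutrophil markers had their highest value in injected library 7 and their lowest in control 6, and were otherwise 182 to 278 CPM in injected and 374 to 538 CPM in control libraries. Taken singly, 3 of the 8 tested neutrophil markers had higher and 5 lower estimates in injected libraries (median log2 fold change -0.20), and 7 of 10 macrophage and monocyte markers had higher and 3 lower ones (median 0.14), none of either list past the threshold. Their part in the values of Alox5 and Alox5ap was not tested.

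**Figure D2:**
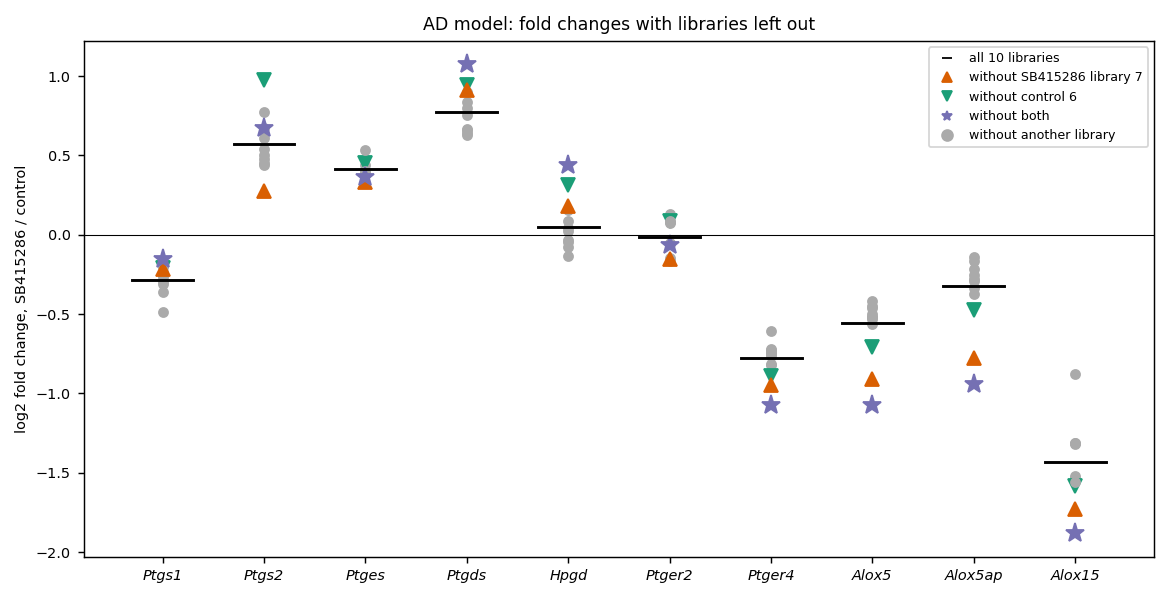
Log2 fold change of injected over control AD libraries (vertical axis) for each member with all 10 libraries (black bars), without injected library 7, without control library 6, without both, and without each other library (grey points). Without both libraries the estimates of Ptger4, Alox5, Alox5ap and Alox15 lie between -1.88 and -0.94, farther from 0 than with all libraries.

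Alox5 in the ACD model spanned 28.8 to 44.6 CPM in controls and 31.1 to 50.6 CPM in injected libraries (log2 fold change 0.21 ± 0.14, adjusted p = 0.552). Alox5ap spanned 217 to 286 CPM in controls and 220 to 335 CPM in injected libraries (0.11 ± 0.13, adjusted p = 0.724). Both pairs of ranges overlapped, with injected libraries 4 and 5 above every control for Alox5ap. The change in the ACD model minus that in the AD model was 0.77 ± 0.36 for Alox5 (unadjusted p = 0.0446, adjusted p = 0.382) and 0.45 ± 0.41 for Alox5ap (adjusted p = 0.678). Without both AD libraries these differences were 1.27 ± 0.22 and 1.05 ± 0.24, with adjusted p = 0.00315 and 0.0118.

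Alox5ap had the largest estimated difference upward among members between both control groups, from 62.4 ± 21.1 CPM in the AD model to 256 ± 31.1 CPM in the ACD model (log2 difference 2.04 ± 0.30, 4.11-fold, adjusted p = 1.65e-05). Alox5 stood at 28.1 ± 7.72 and 34.7 ± 5.92 CPM, a log2 difference of 0.30 ± 0.25 (adjusted p = 0.304). The FPKM ratio of Alox5ap to Alox5 was accordingly 5.63 to 7.40 in AD controls and 17.5 to 24.5 in ACD controls. Within a model it hardly moved, with medians of 6.48 and 7.04 in AD control and injected libraries and 21.7 and 20.3 in ACD control and injected libraries. Counts of Alox5ap were whole in all 10 AD libraries and not whole in any of the 10 ACD libraries. The part of this, or of the neutrophil markers, in the difference was not tested.

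Alox15 (gene ID 11687, chr11:70344147-70390538) encodes 12/15-lipoxygenase, in mice known from eosinophils and resident macrophages. AD controls 1, 2, 4, 5 and 6 held 38.1, 12.02, 11.5, 12.6 and 9.42 CPM, so control 1 held about triple the next control. Injected AD libraries 2, 3, 4, 6 and 7 held 4.09, 8.17, 3.97, 3.96 and 10.7 CPM. Injected library 7 lay above control 6 and the other 4 lay below every control. The log2 fold change was -1.43 ± 0.45 (2.70-fold lower, unadjusted p = 0.00928), with an adjusted p of 0.122 by edgeR's quasi-likelihood test. By DESeq2 the adjusted p was 0.0198. Without control 1 the log2 fold change was -0.88, without injected library 7 it was -1.73 (adjusted p = 0.047), and without both libraries 7 and control 6 it was -1.88 ± 0.45 (adjusted p = 0.018).

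Markers of eosinophils and basophils moved beside Alox15. The 8 markers summed to 111, 46.9, 36.4, 33.9 and 16.6 CPM in AD controls 1, 2, 4, 5 and 6, and to 7.57, 12.4, 10.5, 8.60 and 42.1 CPM in injected libraries 2, 3, 4, 6 and 7. All 6 tested markers had lower estimates in injected libraries (median log2 fold change -1.26), none past the threshold. Control 1 was the highest and injected library 7 the highest of its group in both Alox15 and the marker sum. The part of these cells in the Alox15 values was not tested. Alox15 in the ACD model spanned 8.16 to 18.9 CPM in controls and 7.31 to 23.8 CPM in injected libraries (log2 fold change 0.26 ± 0.34, adjusted p = 0.768). The change in the ACD model minus that in the AD model was 1.70 ± 0.59 (unadjusted p = 0.00986, adjusted p = 0.262), and 2.14 ± 0.59 without both AD libraries (adjusted p = 0.0266). Without AD control 1 that difference was 1.15 ± 0.50 (adjusted p = 0.463). ACD controls minus AD controls gave a log2 difference of -0.46 ± 0.41 (adjusted p = 0.347), and of 0.10 without AD control 1. Alox15 overlaps Gm12312 in the annotation, and its counts were not whole in any library. The effective length implied for it had a median of 2840 bases in AD controls (2495 to 3415). In injected AD libraries the median was 3875 (2779 to 5506). In the ACD model the medians were 3150 in controls and 3851 in injected libraries. A step in its FPKM thus need not equal that in its counts, and the part of this in the Alox15 values was not tested.

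**Figure D3:**
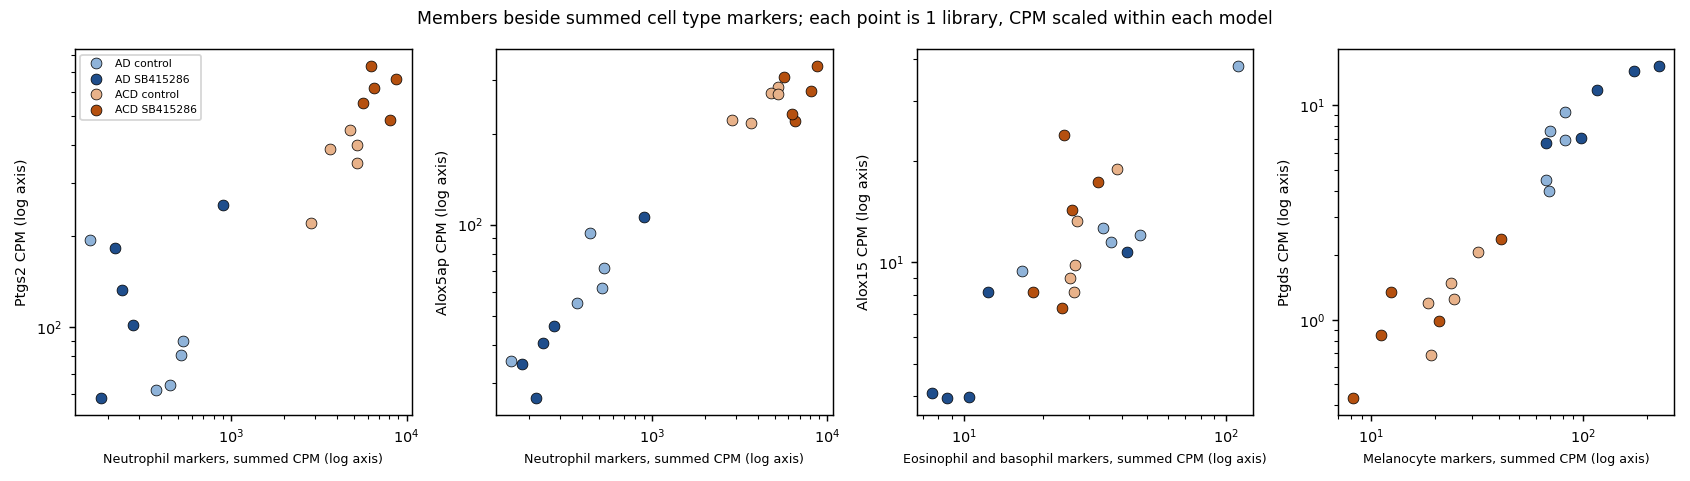
Members against summed marker CPM in each library (log axes): Ptgs2 and Alox5ap against neutrophil markers, Alox15 against eosinophil and basophil markers, and Ptgds against melanocyte markers. Each point is 1 library, coloured by group. Injected AD library 7 is the AD point at 908 CPM of neutrophil markers and AD control 1 is the point at 111 CPM of eosinophil and basophil markers.

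The test of the difference in response between both models, which uses the controls of each model, was passed by 0 of 10 members and by 0.051% of 15700 genes. At an unadjusted p under 0.05, 3 members (Ptger4, Alox5 and Alox15) had a higher estimate in the ACD model, against 12.6% of all genes in either direction. Without injected AD library 7 and AD control 6, the adjusted p was under 0.05 for 4 members (these 3 and Alox5ap) and for 2117 of 15764 genes. In the AD comparison without both it was under 0.05 for 5 members, Ptgds with a higher and Ptger4, Alox5, Alox5ap and Alox15 with a lower estimate, and for 3894 of 15163 genes. Both libraries were picked from these same data. These counts thus show how far the comparison turns on them and are no independent evidence of a response.

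**Figure D4:**
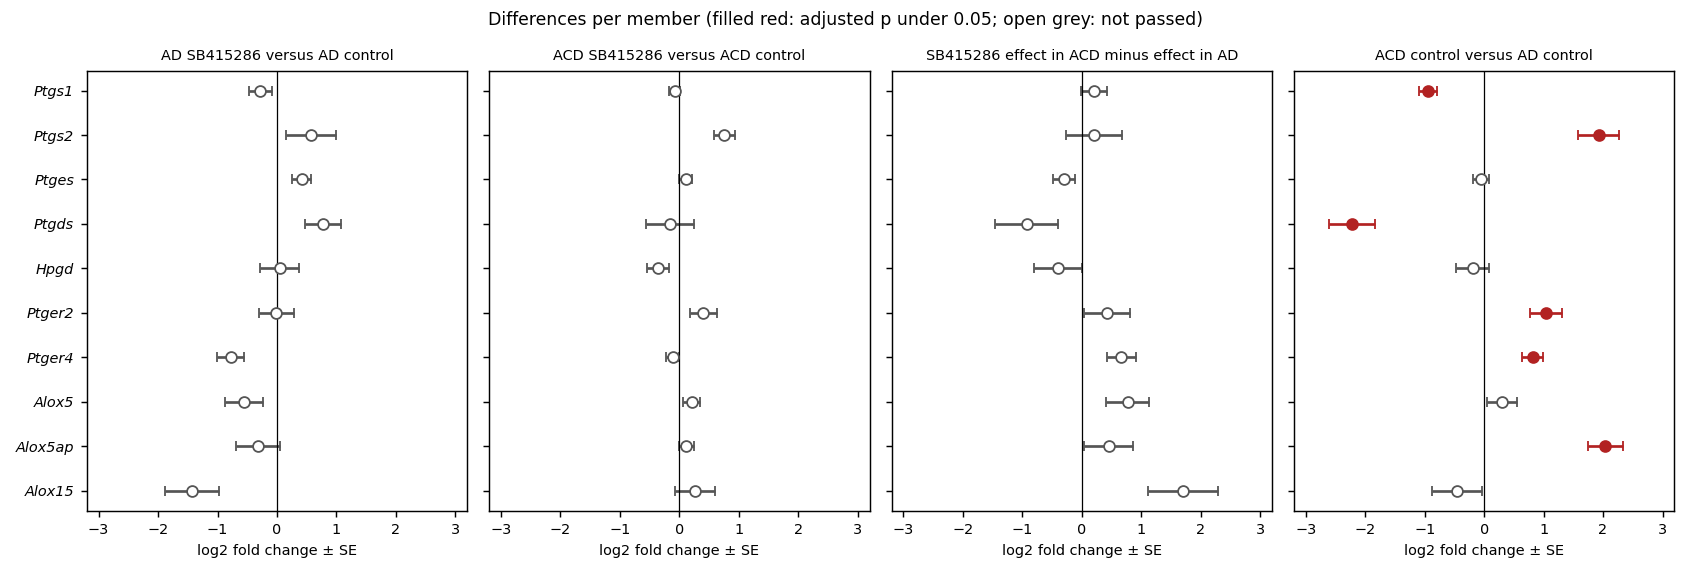
Log2 fold changes of the 10 members with SE (horizontal axis) in 4 comparisons: SB415286 in the AD model, SB415286 in the ACD model, the difference of both, and ACD controls over AD controls. Filled red points passed an adjusted p under 0.05, which 6 members did, all of them in the comparison of both control groups.

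A list of 58 other eicosanoid genes gave the surroundings of the members. Of these, 57 were in the tables and 53 were tested. With SB415286 in the AD mice, 1 of the 53 passed as higher and 1 as lower, where 1.23% of all genes passed. The median log2 fold change over the 53 was -0.02. At an unadjusted p under 0.05, 2 had higher and 11 lower estimates, against 20.1% of all genes in either direction. Pla2g7, a secreted phospholipase that degrades platelet-activating factor, stood at 159, 216, 252, 191 and 275 CPM in AD controls 1, 2, 4, 5 and 6 and at 323, 463, 440, 375 and 471 CPM in injected libraries 2, 3, 4, 6 and 7. All injected libraries lay above all controls, with a log2 fold change of 0.92 ± 0.16 (adjusted p = 0.043). Slco3a1, an organic anion transporter that carries prostaglandins, stood at 91.0, 64.1, 66.5, 86.5 and 82.2 CPM in the controls and at 38.8, 46.0, 45.7, 62.7 and 43.1 CPM in the injected libraries. These did not overlap either, with a log2 fold change of -0.72 ± 0.14 (adjusted p = 0.0479). Of the 53 genes, 1 was separated in this way as higher and 3 as lower, against 4.65% of all genes in either direction. With 1 library left out, Pla2g7 passed in 2 of 10 fits (adjusted p 0.0134 to 0.124) and Slco3a1 in 3 of 10 (0.0287 to 0.135). Without both libraries that stand apart, their log2 fold changes were 0.96 ± 0.16 and -0.68 ± 0.16.

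For SB415286 in the ACD model, 0 of 53 passed by edgeR's quasi-likelihood test. At an unadjusted p under 0.05 there were 4, against 13.8% of all genes. The smallest p values belonged to Ptges3, Pparg, Dpep1 and Ptgis. Ptges3, a cytosolic prostaglandin E synthase and chaperone partner, had a log2 fold change of 0.20 ± 0.05 (adjusted p = 0.183, and past the threshold by DESeq2). Pparg, a nuclear receptor for fatty acid derivatives, had -0.41 ± 0.16 (adjusted p = 0.301), Dpep1, which cleaves leukotriene D4, had -0.37 ± 0.16 (0.334), and Ptgis, the prostacyclin synthase, had 0.45 ± 0.20 (0.348). The difference between the models was likewise passed by 0 of 53, with 9 at an unadjusted p under 0.05, against 12.6% of all genes. Ptgis (0.94 ± 0.24, adjusted p = 0.137), Slco3a1 (0.67 ± 0.18, 0.162), Pla2g7 (-0.85 ± 0.25, 0.196) and the epoxide hydrolase gene Ephx3 (0.61 ± 0.18, 0.197) had its smallest p values.

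Between both control groups 14 of the 53 were higher and 19 lower in the ACD model, near the share over all genes given above. Of the other lipoxygenases 4 of 5 were lower, among them Aloxe3, which is needed for the epidermal barrier, at 21.7 ± 2.52 against 102 ± 37.8 CPM (log2 difference -2.23 ± 0.25, adjusted p = 1.11e-06). Both epoxide hydrolases Ephx1 and Ephx2 were lower, by log2 differences of -1.23 ± 0.18 and -1.29 ± 0.19, as was Ephx3, so that 3 of 3 passed. Of 9 prostanoid synthases 6 were higher and 1 lower. Akr1b8, an aldo-keto reductase, stood at 123 ± 8.92 against 39.7 ± 6.13 CPM (1.63 ± 0.17, adjusted p = 4.52e-07), and Ptges2, a membrane-associated prostaglandin E synthase, at 24.0 ± 2.12 against 16.9 ± 0.932 CPM (0.50 ± 0.07).

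The genes listed under release of arachidonate, which include Pla2g7, Daglb and Mgll, were split. Pla2g4a, the cytosolic phospholipase A2, was higher in ACD controls at 63.3 ± 9.87 against 28.9 ± 3.41 CPM (log2 difference 1.13 ± 0.12, adjusted p = 5.78e-07). Pla2g4f and Pla2g2f, the second a secreted phospholipase of the epidermis, were lower, by -1.81 ± 0.23 and -1.91 ± 0.25, and in all 2 of 11 passed as higher and 4 as lower. Of 7 leukotriene enzymes 2 were higher and 3 lower: Ltc4s, the leukotriene C4 synthase, stood at 4.22 ± 1.15 against 18.2 ± 5.80 CPM (-2.11 ± 0.26), Dpep1 at 36.7 ± 4.20 against 108 ± 23.4 CPM (-1.55 ± 0.17) and its relative Dpep2 at 50.2 ± 2.79 against 22.3 ± 2.80 CPM (1.17 ± 0.18). Fpr2, a receptor of neutrophils and macrophages that binds lipoxin A4, had the largest difference of the genes named, 79.9 ± 19.5 against 5.70 ± 3.23 CPM (3.80 ± 0.58, adjusted p = 2.23e-05), and 4 of 6 leukotriene and lipoxin receptors were higher. Keratinocyte markers were lower in ACD controls for 5 of 8 (sums of 12020 to 17370 against 23460 to 36340 CPM), and neutrophil markers higher for 11 of 11. Of 8 tested mast cell markers 7 were lower and 1 higher (median log2 difference -1.04), with sums of 765 to 945 against 769 to 1091 CPM. Macrophage and monocyte markers were higher for 7 and lower for 1 of 10, and T cell markers higher for 5 of 7. The part of these cells in these differences was not tested.

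**Figure D5:**
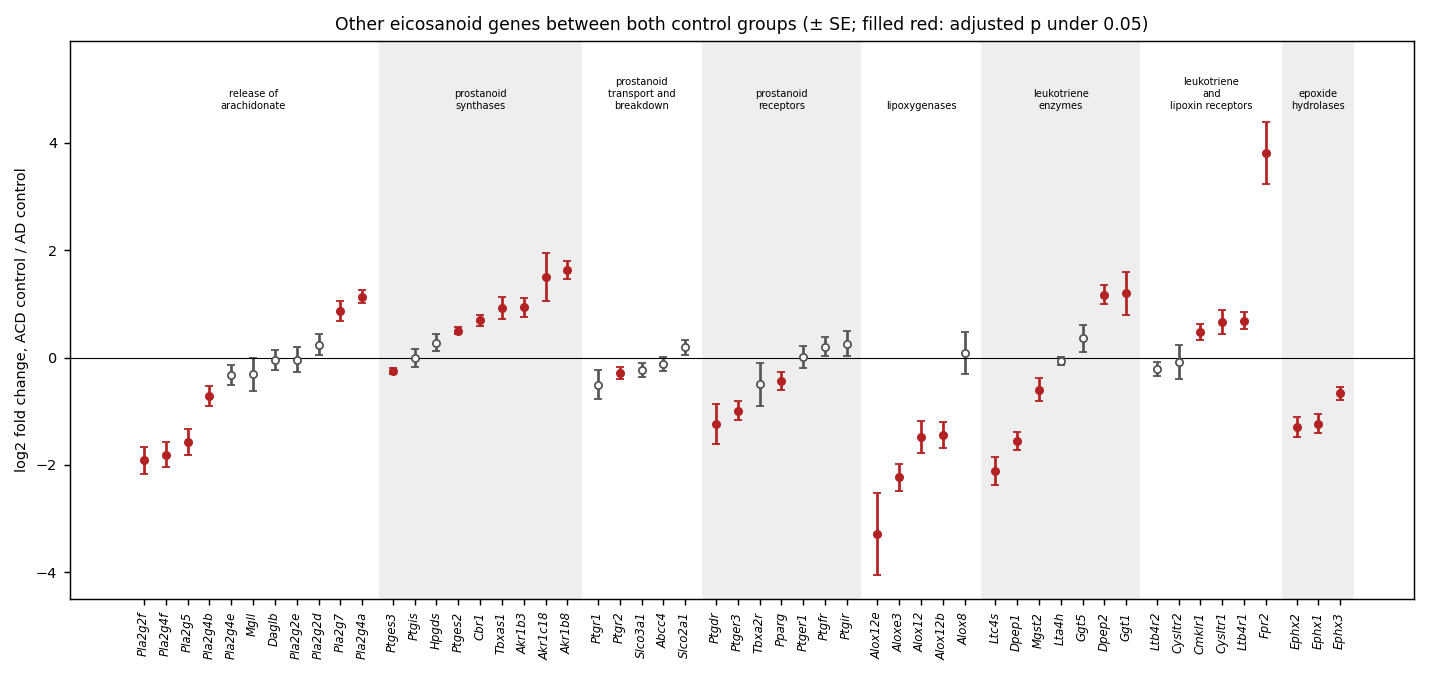
Log2 fold change of ACD controls over AD controls (vertical axis, with SE) for the 53 tested eicosanoid genes outside the 10 members, grouped by role. Filled red points passed an adjusted p under 0.05. Lipoxygenases and epoxide hydrolases lie mostly below 0 and prostanoid synthases mostly above it.

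Genes most like each member were found by the root mean square difference in centred log2 CPM over the 20 libraries, among 15700 genes. Such likeness includes the step between both models and describes these libraries. Relative to its own SD of 1.30, Alox5ap had the closest matches: Fxyd5 at 0.15, Lcp1, which encodes the leukocyte protein L-plastin, at 0.18, and Trpv2 at 0.18. Alox15 was nearest to P2rx1 (0.41), the eosinophil interleukin 5 receptor gene Il5ra (0.41, also among the markers above) and F7 (0.46), against its own SD of 0.83. Ptgds was nearest to the melanocyte gene Tyrp1 (0.39, also among the markers above), Reln (0.41) and Tmprss11e (0.42), against an SD of 1.502. Ptgs2 was nearest to Rab20 (0.40), Csrnp1 (0.41) and Tnfrsf26 (0.41), against an SD of 1.27.

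The other members were matched as follows. Ptgs1 was nearest to the epithelial sodium channel gene Scnn1a (0.15), Mfsd6 (0.16) and Fzd10 (0.16), against an SD of 0.49. Ptger4 was nearest to Olfm1, Septin6 and Cnn2 (0.20 each, SD 0.71), and Ptger2 to Tbkbp1, Spata13 and Cd93 (0.28 to 0.29, SD 0.76). Alox5 was nearest to Trim12c, Armcx2 and Nphp4 (0.23 to 0.24, SD 0.60). Ptges was nearest to Ptk2 (0.13), Emp1 (0.16) and Rbms1 (0.16), against an SD of 0.27, and Hpgd to Gata6 (0.23), Il6ra (0.29) and Maml3 (0.31), against an SD of 0.51.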

How the data were processed

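RNA from mouse ears was selected with oligo(dT) and sequenced on the MGISEQ-2000, per the labels. The submitters' processing notes name HISAT, HISAT2, Bowtie2 2.2.5, RSEM 1.2.8, GRCm38.p6 and GRCh38.p13, without their roles. The authors deposited 1 table per model with expected counts, estimated per gene and not normalised, and with FPKM, scaled by the authors by length and depth. Another 38 columns, with TPM values per library and means over libraries, were not used. Groups came from the sample labels. Members and gene lists were chosen with earlier results of these data known.

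Rounded expected counts went into edgeR 4.0.16 under R 4.3.3 (filterByExpr by group, minimum count 10, TMM, robust quasi-likelihood F test, 2-sided, Benjamini-Hochberg adjustment over all genes tested, threshold 0.05). Each model was fitted alone. The difference between models and the comparison of both control groups came from 1 fit of 20 libraries. CPM carry TMM factors of the model's table, or of all libraries where both models are compared. SE is the absolute log2 fold change over the square root of F. Levels between genes used FPKM. All 10 members passed the filter. Members were all named, and from the list of 58 genes those past the threshold (at most 12 by p), otherwise the 4 with the smallest p. Alternatives used limma 3.58.1 and DESeq2 1.42.0. The scripts were tested on simulated data. No 2 libraries of a group were copies, since the smallest variance ratio to counting noise was 11.4.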

Additional observations from a re-analysis of the deposited data

Results flagged for a closer look

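Among the 40 sets of 5 libraries formed by 10 members and 4 groups, 6 held a library far from the other 4, with a gap above 0.71 of the group's whole range. Chance gives about 1 in 20 such sets for independent, normally distributed values. The CPM were not log-transformed and injected AD library 7 recurs among the 6, so that rate is no yardstick here. Injected AD library 7 was far above its group for Alox5 (36.5 CPM), Alox5ap (106 CPM) and Ptger4 (10.2 CPM), and it also held the most neutrophil markers of the AD libraries. AD control 6 was far above its group for Ptgs2 (194 CPM). AD control 1 was far above its group for Alox15 (38.1 CPM). Injected AD library 6 was far above its group for Ptgs1 (188 CPM). All 6 were in the AD model.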

How the results depend on the processing

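Over 858 values of members under alternatives, 811 kept their direction and their side of the threshold, 27 newly passed it, 20 changed sign without passing in either case, and none that had passed was lost. All 6 members that differed between both control groups passed in all 17 alternatives, with 9079 to 9727 genes and 6 to 6 members past the threshold when 1 control library was left out.

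In the AD model, 187 genes (89 higher, 98 lower) became 48 with no filter on low counts, 1227 by DESeq2, 3632 by limma's voom (weighted by library quality), 1461 in 1 fit of all libraries and 3894 without injected library 7 and control 6. Upper quartile scaling gave 104 of 170 genes as lower and limma on log2(FPKM + 1) 165 of 231. Members past the threshold were 2 by DESeq2, 6 by voom, 2 in 1 fit of all libraries and 5 without both libraries. With 1 library left out, the AD genes ranged from 0 (controls 1, 2, 4 and 5 and injected libraries 3 and 4) to 1423 (control 6), with 1 without injected library 2, 21 without injected library 6 and 1122 without injected library 7. The AD members ranged from 0 to 3, with 1 without control 6 (Ptger4) and 3 without injected library 7 (Ptger4, Alox5 and Alox15). In the limma fits of FPKM, Ptger2 fell under the minimum of 1 FPKM and 9 members were tested.

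In the ACD model, 4 genes became 13 under upper quartile scaling, 415 by DESeq2, 17 by voom, and 12 and 12 by limma on log2(FPKM + 1) and log2(FPKM + 0.1). DESeq2 passed 1 member, Ptgs2. With 1 library left out, genes ranged from 2 (any control) to 18 (injected library 8) and members from 0 to 0. For the difference between models, 8 genes became 14 under upper quartile scaling, 5 with no filter, 178 by DESeq2, 1206 by voom and 2117 without both AD libraries, with 2 members by voom and 4 without both. With 1 library left out, its genes ranged from 1 to 312 (injected AD library 7) and its members from 0 to 1. The cause was not tested.

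Whether the title numbers pair the libraries cannot be decided here, since few numbers were shared by both groups of a model. Same-numbered libraries of both groups had correlations of their deviations of -0.17, -0.20 and 0.25 in the AD model and -0.18, -0.01 and 0.20 in the ACD model. Injected AD libraries 2, 4 and 6 all had their highest correlation with control 6, so the match of number 6 is no sign of pairing. Injected ACD libraries 3, 4 and 5 had theirs with controls 4, 1 and 6. With the number as a replicate block, 0 genes passed in the AD model (2255 at an unadjusted p under 0.05), 1 in the ACD model and 1 for the difference, and 0 members passed in each. In the AD model the estimate of Ptgs2 with the block was -0.12.

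At 8 to 51 counts a library, Ptgds in the ACD model and Ptger2 in the AD model are the members whose precision depth limits most.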
